A study of Mus musculus with 4 samples.

Results

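The Schlafen genes of the mouse form a cluster on chromosome 11, and 7 of them, Slfn1, Slfn2, Slfn3, Slfn4, Slfn5, Slfn8 and Slfn9, were followed across the 4 arrays. The members were taken as every probe whose gene name in the array files is one of these 7, which gave 13 probes of 56605 on the array and 7 of the 32565 named genes. Slfn5 has 5 probes, Slfn8 and Slfn9 have 2 each, and the other 4 genes have 1 each. Labelled RNA of each sample was hybridised to its own Agilent array in 1 colour. Naive T cells and iTreg cells at 3 h were each represented by 1 WT array and 1 Nr4a-TKO array. The study asked how Nr4a1, Nr4a2 and Nr4a3, nuclear receptors induced by T cell receptor signalling, act in the early differentiation of induced regulatory T (iTreg) cells.

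The labels give naive CD4+ T cells of spleen and lymph nodes with low CD25 and CD44, high CD62L and no Foxp3. The study's methods describe naive cells from bone marrow chimeras, made in irradiated Rag2-/- hosts that have no T or B cells of their own, with a gate that does not name CD25, and also naive cells of OT-II mice. Which of these gave the arrays is not stated in the labels. Nr4a-TKO cells lack all 3 Nr4a genes (floxed Nr4a1, floxed Nr4a2 and Nr4a3-/-) and, in the chimeras, came from hosts that also received WT marrow, whereas WT cells came from hosts of WT marrow alone, so that genotype and kind of chimera cannot be told apart there. The mice were C57BL/6J young adults, and chimeras were used some weeks after transplantation. The Cre driver is not given in the sources used here. The iTreg groups were kept for 3 h on anti-CD3 (2 µg/ml) with anti-CD28 (0.5 µg/ml), IL-2 (10 ng/ml), TGF-β1 and blocking antibodies to IFN-γ and IL-4, and the TGF-β1 dose of these arrays was not settled by the sources used here. The naive groups were not cultured.

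Schlafen proteins share an N-terminal domain that cleaves or binds RNA, and the family is divided by length. Slfn1 and Slfn2 are short, Slfn3 and Slfn4 are intermediate, and Slfn5, Slfn8 and Slfn9 are long and carry a helicase-like domain. Several members respond to interferon, and Slfn1 was named for its link to T cell growth arrest. Slfn2 is required for naive T cells to stay quiescent, and in activated T cells it shields tRNA from cleavage.

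The promoters of the long members are shown because probes of these genes were lower at 3 h in the data below, with that of Slfn2, which was higher. Slfn1, a short member that was also lower at 3 h, is not shown, and its matches are given below. Each line is the RefSeq window on GRCm38.p6, from 250 bases before the start site to 50 after it, written 5′ to 3′ along the gene, with matches to the 4 motifs searched in capitals. The windows are chr11:82951852-82952151 on the plus strand for Slfn5, chr11:83020761-83021060 on the minus strand for Slfn8 (the window of its other start site overlaps it), chr11:82991781-82992080 on the minus strand for Slfn9 and chr11:83064862-83065161 on the plus strand for Slfn2.
Slfn5 promoter: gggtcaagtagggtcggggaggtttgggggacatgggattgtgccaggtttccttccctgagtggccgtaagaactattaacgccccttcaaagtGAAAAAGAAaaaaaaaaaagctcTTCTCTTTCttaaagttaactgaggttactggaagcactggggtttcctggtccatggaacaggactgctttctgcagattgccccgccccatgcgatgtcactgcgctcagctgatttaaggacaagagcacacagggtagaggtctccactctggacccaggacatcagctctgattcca
Slfn8 promoter: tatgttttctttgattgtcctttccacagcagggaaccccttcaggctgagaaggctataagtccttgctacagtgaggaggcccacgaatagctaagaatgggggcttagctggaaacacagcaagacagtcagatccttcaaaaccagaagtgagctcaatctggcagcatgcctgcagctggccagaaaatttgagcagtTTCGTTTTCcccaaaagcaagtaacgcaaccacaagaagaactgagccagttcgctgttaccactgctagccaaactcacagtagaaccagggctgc
Slfn9 promoter: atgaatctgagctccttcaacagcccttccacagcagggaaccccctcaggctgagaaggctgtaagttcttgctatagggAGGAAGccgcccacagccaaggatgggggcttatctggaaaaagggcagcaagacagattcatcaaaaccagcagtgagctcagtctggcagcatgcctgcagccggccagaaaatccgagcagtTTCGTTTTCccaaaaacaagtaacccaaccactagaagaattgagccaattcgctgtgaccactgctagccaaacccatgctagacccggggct
Slfn2 promoter: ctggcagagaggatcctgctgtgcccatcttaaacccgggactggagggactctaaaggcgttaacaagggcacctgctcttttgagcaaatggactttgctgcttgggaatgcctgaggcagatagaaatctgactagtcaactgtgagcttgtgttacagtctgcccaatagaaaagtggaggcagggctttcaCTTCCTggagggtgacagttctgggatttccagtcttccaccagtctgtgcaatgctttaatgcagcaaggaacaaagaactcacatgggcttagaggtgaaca

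The core of the interferon-stimulated response element, GAAANNGAA on either strand, was found in the windows of Slfn5, Slfn8 and Slfn9, which is 3 of the 7 members, against 8.56% of 32851 promoters. The window of Slfn1, which was also lower at 3 h, did not hold it. The Slfn5 window holds it at 2 places, at positions -155 and -132 from the start site. In Slfn8 and Slfn9 it has the same letters, TTCGTTTTC, on the opposite strand, at positions -47 and -44. The Ets site AGGAAG was found in Slfn1, Slfn2, Slfn3, Slfn4 and Slfn9, and in 35.4% of all promoters. The Nr4a site AAAGGTCA and the forkhead site TGTTTAC were in none of the member windows, and in 1.51% and 3.65% of all promoters. These are matches of letters in a window and not measured binding sites.

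The probes themselves decide what each signal means, so stretches of 30 of their 60 bases are shown for those the results turn on, with mm9 positions on chromosome 11 from the files. Slfn5 A_55_P2047009 lies at chr11:82765536-82765595 (plus strand), Slfn5 A_51_P364694 at chr11:82778192-82778251 (plus), Slfn9 A_55_P2110537 at chr11:82793812-82793871 (minus), Slfn9 A_51_P504991 at chr11:82794408-82794467 (minus), Slfn8 A_66_P105585 at chr11:82830985-82831044 (minus), Slfn2 A_51_P423578 at chr11:82883791-82883850 (plus) and Slfn1 A_52_P425890 at chr11:82935656-82935715 (plus). Capitals mark a run of 21 bases that is found, on the opposite strand, in a probe of another gene.
Slfn5 A_55_P2047009: actgctttctgcagattgccccgccccatg
Slfn5 A_51_P364694: tatcaacctgtatcctggtaaacatttcat
Slfn9 A_55_P2110537: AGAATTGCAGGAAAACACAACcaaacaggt
Slfn9 A_51_P504991: gacataggctatgggaacgttgagaccata
Slfn8 A_66_P105585: attaattgctatgcaaatgactaacaagag
Slfn2 A_51_P423578: acagaggaatgggtgaaactccagatgaat
Slfn1 A_52_P425890: agacaagatcaatagtcttgattattcagc

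The place and sharing of some probes touch the values. All 60 bases of Slfn5 A_55_P2047009 match the Slfn5 promoter window from position -68 to -9, wholly before the RefSeq start site, and 57 of the 60 bases of Slfn5 A_55_P2722135 match it from -7 to 50. Neither matched a RefSeq transcript by its accessions, whereas the other 3 Slfn5 probes matched Slfn5. Slfn9 A_55_P2110537 shares 20 or more bases with a probe of 4930512M02Rik and with 4 promoter windows of other genes, which no other member probe does with any probe of another gene or any non-Schlafen promoter. Slfn9 A_51_P504991 is assigned to transcripts of Slfn9, Slfn8 and Slfn10-ps, whose signals it cannot separate.

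Across the series, the median spot intensity was between 44.8 and 45.4 per array, and between 64.9% and 67.6% of probes were well above background (the scanner software's test of a spot against its local background). The spread of repeated spots gave an SD of a difference between 2 arrays of 0.385 below a log2 level of 5, 0.199 between 5 and 8 and 0.168 above 8. This is a technical spread within arrays, and with 1 array per group there is no spread between replicates, no test and no p-value. All values below are log2 of the normalized intensity, and more than 2-fold means a log2 difference over 1. The targeted genes do not all follow the labels: Nr4a1 was 7.05 and 11.34 on the WT arrays and 8.39 and 11.82 on the Nr4a-TKO arrays (naive T, then iTreg at 3 h), while of 3 Nr4a3 probes at 3 h A_51_P128397 was 9.34 in WT and 7.48 in Nr4a-TKO, A_66_P103105 was 8.89 and 7.42, and A_66_P132423 was 9.46 and 9.65. Both Nr4a2 probes were also higher on the array labelled Nr4a-TKO at 3 h, by 1.37 and 1.38. Where the probes lie relative to the deleted parts is not given in the sources used here, so Nr4a-TKO below means the arrays labelled so. The 7 CD4 T cell markers were well above background on every array. Of other cell types, 7 to 9 of 11 myeloid markers, 4 to 5 of 5 dendritic, 7 of 7 B cell, 3 of 5 NK, 2 of 2 CD8 T and 3 of 4 erythroid markers were well above background. The summed linear level of the CD4 T markers was 20939 in WT naive T, 21217 in Nr4a-TKO naive T, 16522 in WT iTreg at 3 h and 13400 in Nr4a-TKO iTreg at 3 h, and that of the myeloid markers ranged from 34778 to 39904, most of it from Itgam alone (log2 14.98 to 15.14). These sums add different probes and cannot be set against each other. The part of other cells in the results was not tested.

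From naive T cells to iTreg cells at 3 h, the Schlafen probes were mostly lower and Slfn2 was higher. In WT cells 8 of 13 probes were more than 2-fold lower and 0 higher, against 8.5% and 9.29% of 39310 probes. In Nr4a-TKO cells 5 of 13 were more than 2-fold lower and 0 higher, against 7.96% and 8.26% of 40160 probes. The median difference of the 12 probes that had one was -1.54 in WT and -0.97 in Nr4a-TKO, beside -0.02 and 0.01 over all probes. These counts and medians take several probes of the same gene, most of all Slfn5. With each gene by its brightest probe, 2 of 6 members with a difference were more than 2-fold lower in WT and 1 of 6 in Nr4a-TKO. Over all genes the shares were 8.59% and 8.04%. The medians by gene were -0.52 in WT and -0.46 in Nr4a-TKO, beside -0.05 and -0.02 over all genes. For Slfn5 the brightest probe is the one upstream of the RefSeq start, at -0.23 in WT. The Slfn5 probes matched to the transcript stood at -2.35 (a bound), -3.39 and -3.36 in WT. For Slfn9 the brightest probe is the one that shares a run with a probe of another gene, at -0.55 in WT against -1.83 for its other probe. Slfn4 had no difference because its probe was not well above background on any array. In bulk RNA, fewer cells that express a gene and less of its RNA per cell cannot be told apart.

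**Figure D1:**
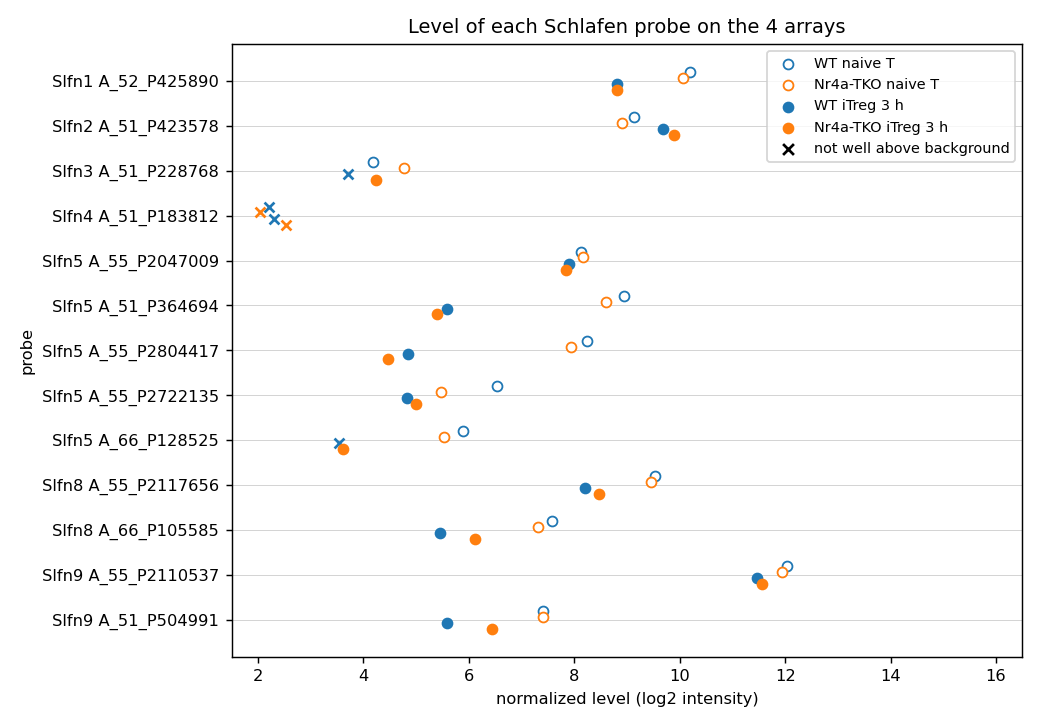
Normalized level (log2 intensity, x axis) of each of the 13 Schlafen probes (y axis) on the 4 arrays. Open circles are naive T and filled circles iTreg at 3 h, blue is WT and orange Nr4a-TKO, and a cross is a probe not well above background. Slfn5 A_51_P364694 lies at 8.95 in WT naive T and 5.59 in WT iTreg at 3 h, Slfn5 A_55_P2047009 stays between 7.84 and 8.17, and Slfn2 is the one member above background that lies higher at 3 h.

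Slfn5, a long member that acts in the nucleus, had the largest differences of the family. Its probe A_51_P364694 measured 8.95 in WT naive T, 8.60 in Nr4a-TKO naive T, 5.59 in WT iTreg at 3 h and 5.39 in Nr4a-TKO iTreg at 3 h. Both iTreg arrays lay far below both naive arrays, 10.3-fold in WT (log2 -3.36) and 9.26-fold in Nr4a-TKO (-3.21). The size depends on the background correction, with -2.47 and -2.25 at a normexp offset of 50. Only 100 of 39310 probes had a lower difference in WT and 109 of 40160 in Nr4a-TKO.

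A second Slfn5 probe of the same transcript, A_55_P2804417, measured 8.23, 7.94, 4.84 and 4.47 in the same order, with differences of -3.39 in WT and -3.47 in Nr4a-TKO. The third, A_66_P128525, measured 5.89, 5.53, 3.54 and 3.61, and it was not well above background in WT iTreg at 3 h. With these values it was at least 5.10-fold lower in WT and 3.79-fold lower in Nr4a-TKO, but at a normexp offset of 50 it was -0.83 and -0.63 on the log2 scale, within 2-fold, so that 5.10 is a bound for this correction only. In sign, the 3 probes matched to the RefSeq transcript ran the same way in both genotypes.

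The 2 Slfn5 probes at the start site gave other values. A_55_P2047009, upstream of the RefSeq start and with the highest mean of the 5, measured 8.13, 8.17, 7.90 and 7.84, with differences of -0.23 and -0.33, and 13835 of 39310 probes had a lower difference in WT. A_55_P2722135, which crosses the start, measured 6.53 in WT naive T, 5.47 in Nr4a-TKO naive T, 4.83 in WT iTreg at 3 h and 4.997 in Nr4a-TKO iTreg at 3 h. It was 3.24-fold lower at 3 h in WT and 1.39-fold lower in Nr4a-TKO, with WT naive T standing above the other 3 arrays. A gene-level value of Slfn5 thus depends on the probe: by its brightest probe Slfn5 was 1.18-fold lower in WT, and by the next brightest 10.3-fold.

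Slfn1, a short member, measured 10.19 in WT naive T, 10.07 in Nr4a-TKO naive T, 8.81 in WT iTreg at 3 h and 8.80 in Nr4a-TKO iTreg at 3 h. The genotypes differed by less than the spot spread at each stage, and the stages did not overlap. Slfn1 was 2.61-fold lower at 3 h in WT (-1.39) and 2.40-fold lower in Nr4a-TKO (-1.26).

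Slfn2, the other short member, measured 9.13, 8.90, 9.68 and 9.89 in the same order. Here both iTreg arrays were above both naive arrays, by 1.47-fold in WT (0.55) and 1.98-fold in Nr4a-TKO (0.99). Neither passed 2-fold with these values, and with the processed intensities scaled to the 75th percentile the Nr4a-TKO difference was 1.18.

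Slfn8, a long member, was lower at 3 h by both probes. A_55_P2117656 measured 9.52 in WT naive T, 9.46 in Nr4a-TKO naive T, 8.20 in WT iTreg at 3 h and 8.47 in Nr4a-TKO iTreg at 3 h, with differences of -1.33 and -0.99. A_66_P105585 measured 7.58, 7.31, 5.45 and 6.12, with differences of -2.13 and -1.20. At 3 h WT was the lower array on both probes, by 0.27 on A_55_P2117656 and 0.67 on A_66_P105585. Only the gap on A_66_P105585 exceeded 2 SDs of the spot spread. The naive arrays differed by 0.07 and 0.26, within 2 SDs.

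Slfn9, the third long member, gave unlike values from its 2 probes. A_55_P2110537 measured 12.03, 11.95, 11.47 and 11.56, so its differences were -0.55 in WT and -0.39 in Nr4a-TKO. This is the probe that shares a run of 21 bases with a probe of 4930512M02Rik, which itself measured 13.05, 13.10, 12.71 and 12.71. The shared Slfn9, Slfn8 and Slfn10-ps probe A_51_P504991 measured 7.41, 7.40, 5.58 and 6.45, and was 3.55-fold lower at 3 h in WT and 1.94-fold lower in Nr4a-TKO.

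Slfn3 and Slfn4, the intermediate members, were dim. Slfn3 measured 4.19 in WT naive T, 4.76 in Nr4a-TKO naive T, 3.70 in WT iTreg at 3 h (not well above background) and 4.23 in Nr4a-TKO iTreg at 3 h. It was at least 1.40-fold lower at 3 h in WT and 1.45-fold lower in Nr4a-TKO, and no neighbours in the order of its 4 levels differed by more than 2 SDs of the spot spread at that level. Slfn4, best known from macrophages, measured between 2.03 and 2.52 and was not well above background on any array. Of the 11 myeloid markers, Itgam, Csf1r, Fcgr3, S100a9, Cd68 and Mpeg1 were well above background on all 4 arrays, Adgre1 on none, and Cd14, Lyz2, S100a8 and Spi1 on some.

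**Figure D2:**
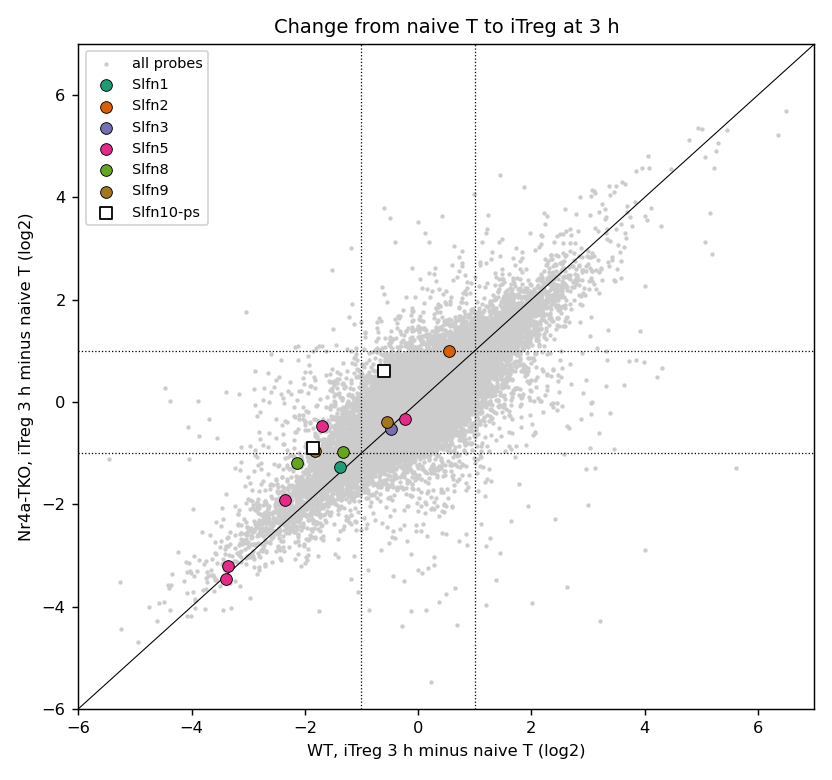
Difference of iTreg at 3 h minus naive T (log2) in WT (x axis) against Nr4a-TKO (y axis), for all probes (grey), the members by gene (colours) and Slfn10-ps (squares). Dotted lines mark 2-fold and the solid line equal change. The lowest pair is Slfn5, at -3.39 and -3.36 in WT, Slfn2 is the member above 0 on both axes, and Slfn8 and the shared Slfn9 probe lie above the line of equal change.

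The other Schlafen genes on the array were not members. Slfn10-ps, a pseudogene between Slfn8 and Slfn2, measured 9.44, 9.38, 7.58 and 8.49 on A_55_P2135200, which was 3.63-fold lower at 3 h in WT and 1.86-fold lower in Nr4a-TKO. Its dim probe A_66_P130199 measured 4.72, 4.48, 4.12 and 5.08, so that its differences were -0.60 and 0.60. Slfn14, a member expressed in the megakaryocyte lineage, was well above background on the naive arrays only, at 3.72 and 3.75. Slfn5os, annotated antisense near Slfn5, measured 3.93 and 4.07 on the WT arrays and was not well above background on either Nr4a-TKO array. Slfnl1, a Schlafen-like gene on chromosome 4, measured between 4.17 and 4.53.

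Between genotypes in naive T cells, Nr4a-TKO was more than 2-fold lower for 1 of 13 Schlafen probes and higher for 0, against 1.68% and 1.83% of all probes. The one probe was Slfn5 A_55_P2722135 at the start site, 2.08-fold lower (-1.05). The 3 probes matched to the RefSeq transcript of Slfn5 were lower by smaller amounts, at -0.35, -0.30 and -0.36, and the promoter probe differed by 0.04. Slfn3 differed by 0.57 at a dim level, and the other members lay between -0.26 and 0.00.

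In iTreg cells at 3 h, 0 of 13 probes were more than 2-fold apart between genotypes in either direction, with 1.65% of all probes higher and 1.9% lower in Nr4a-TKO. Within 2-fold, the probes of Slfn8 and Slfn10-ps and the shared Slfn9 probe were higher in Nr4a-TKO. The differences were 0.87 for the shared Slfn9 probe, 0.67 and 0.27 for Slfn8 and 0.90 and 0.96 for Slfn10-ps. For the shared probe, Slfn8 A_66_P105585 and Slfn10-ps A_55_P2135200 this exceeded 2 SDs of the spot spread, 0.199 or 0.168 at their levels. The same held for the dim Slfn10-ps A_66_P130199, where the SD was 0.385. In naive T these probes differed by 0.00, -0.26, -0.06 and -0.24, in the order named. Whether RNA of one of these genes binds the probes of another was not tested. The longest run of bases shared by any 2 Schlafen probes was 9, which cannot answer this because it compares probes and not transcripts. Slfn9 A_55_P2110537 differed by 0.08, Slfn2 by 0.21 and Slfn1 by 0.00. In the order of the 4 levels of each member probe, the other neighbours of the same stage and different genotype lay within 2 SDs of each other, apart from Slfn5 A_55_P2722135 in naive T.

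**Figure D3:**
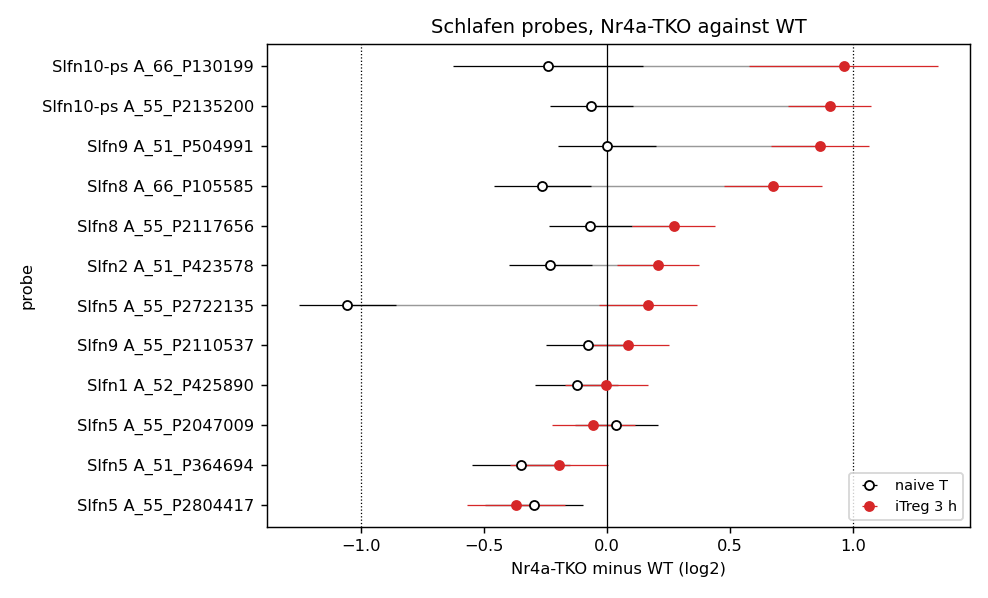
Difference of Nr4a-TKO minus WT (log2, x axis) in naive T (open) and in iTreg at 3 h (red) for the Schlafen probes of the cluster that were well above background on all 4 arrays (y axis). Bars are 1 SD of a difference from repeated spots at that level, a technical spread, and dotted lines mark 2-fold. Slfn10-ps, the shared Slfn9 probe and Slfn8 A_66_P105585 lie between 0.67 and 0.96 at 3 h, and Slfn5 A_55_P2722135 lies at -1.05 in naive T.

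For the change in Nr4a-TKO minus the change in WT, 10 of the 13 member probes were well above background on all 4 arrays. Of these, 1 was more than 2-fold apart with the less negative change in Nr4a-TKO and 0 the other way, against 1.69% and 1.7% of 32959 probes. It was again Slfn5 A_55_P2722135, at 1.22. The difference was above 0 for 8 of the 10, with a median of 0.25 beside 0.01 over all probes. Slfn8 A_66_P105585 stood at 0.93, the shared Slfn9 probe at 0.87 and Slfn2 at 0.44, while A_51_P364694 and A_55_P2804417 of Slfn5 stood at 0.15 and -0.07. The difference of changes was not tested, as each group has 1 array.

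Genes beside the cluster were read in the same way. Within 500 kb of the member probes, 33 other named genes had probes. In WT, 22 of them had a difference, 6 were more than 2-fold higher and 1 was more than 2-fold lower, against 8.45% and 8.59% of genes, with a median of 0.28. In Nr4a-TKO 27 had a difference, 5 were higher and 1 was lower, against 7.84% and 8.04% of genes, with a median of 0.01. The one lower gene was Ccl5, a chemokine of T cells, at -2.28 in WT and -2.10 in Nr4a-TKO. Nle1, a ribosome assembly factor, was higher by 2.03 and 1.71, and Ccl4, another chemokine, by 1.37 and 2.53. AI662270 was higher by 1.28 and 1.22, AA465934 by 1.05 in WT, Lig3, a DNA ligase, by 1.02 in WT, Fndc8 by 1.33 in Nr4a-TKO and Ccl6 by 1.00 and 1.29. The only neighbour more than 2-fold apart between genotypes at 3 h was Ccl4, higher by 1.22 in Nr4a-TKO. Inside the cluster itself, 1190001M18Rik measured between 3.45 and 4.17.

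**Figure D4:**
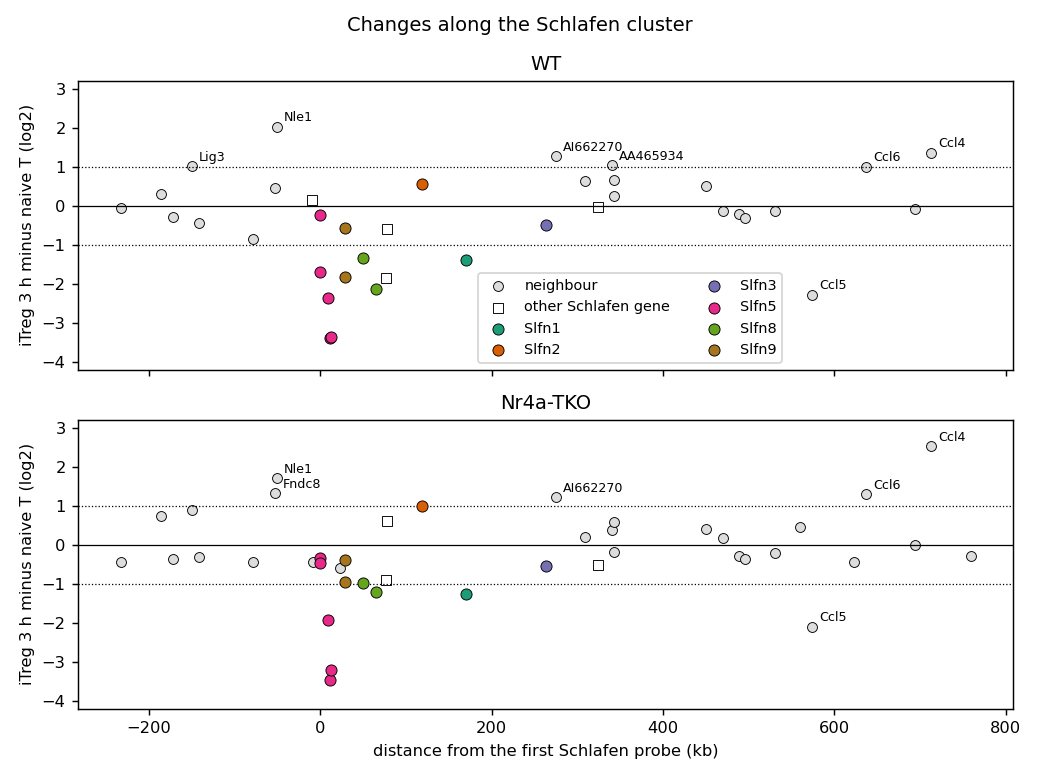
Difference of iTreg at 3 h minus naive T (log2, y axis) in WT (upper panel) and Nr4a-TKO (lower panel), by distance along chromosome 11 from the first member probe (kb, x axis). Coloured circles are member probes, squares other Schlafen genes and pale circles neighbouring genes by their brightest probe, named where past 2-fold (dotted lines). Slfn5 lies lowest, Slfn2 at 118 kb lies above 0 between lower members, and Nle1 and Ccl4 are the highest neighbours.

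Genes of the pathways in which Schlafen proteins are placed were read from lists, each gene by its brightest probe. The lists were chosen with earlier results of these data known, so their counts and medians describe these arrays and are no independent support. Of 31 interferon-stimulated genes with a difference, 21 were more than 2-fold lower and 0 higher in WT, against 8.59% and 8.45% of all genes. Their median in WT was -1.54 beside -0.05 over all genes. In Nr4a-TKO 21 of 31 were lower and 0 higher, against 8.04% and 7.84% of all genes, with a median of -1.46 beside -0.02. The lowest in WT were Rtp4 (-4.08), a chaperone of receptors, and Xaf1 (-3.97, a bound), an inhibitor of survival signals, and the highest were the antiviral GTPase Mx1 (0.64) and the tether of virions Bst2 (-0.49).

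Of 22 genes of T cell quiescence and the naive state, 14 were more than 2-fold lower and 1 higher in each genotype. Over all genes, 8.59% were lower and 8.45% higher in WT, and 8.04% and 7.84% in Nr4a-TKO. The medians of the list were -1.69 in WT and -1.32 in Nr4a-TKO, beside -0.05 and -0.02 over all genes. S1pr1, the receptor by which T cells leave lymph nodes, was lowest in WT (-4.08), followed by the glucocorticoid-induced Tsc22d3 (-3.56), and the highest were the checkpoint receptor Vsir (1.17) and Runx1 (-0.26). Slfn2, known for the same state, was higher while most of this list was lower.

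Of the tRNA cleavage genes, which include enzymes that cut or protect tRNA, 5 of 6 had a difference in WT. Nsun2, which methylates tRNA, differed by 2.19 in WT and 1.78 in Nr4a-TKO, while in WT Elac2, which trims tRNA ends, differed by 0.90 and Trdmt1, another tRNA methylase, by -0.82. Angiogenin (Ang), the nuclease from which Slfn2 shields tRNA, measured between 3.21 and 3.61. It was well above background on the Nr4a-TKO naive array alone. The medians of the list were -0.18 in WT and 0.04 in Nr4a-TKO.

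Of 12 early activation genes, 8 were more than 2-fold higher in each genotype, and 2 were lower in WT and 1 in Nr4a-TKO. Over all genes, 8.45% were higher and 8.59% lower in WT, and 7.84% and 8.04% in Nr4a-TKO. The medians of the list were 2.03 and 1.59, beside -0.05 and -0.02 over all genes. Irf4, a transcription factor graded by receptor signal, was 6.35 higher in WT and the cytokine Il2 was at least 3.36 higher on the log2 scale, whereas Fos (-2.39) and Fosb (-1.20) were lower.

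**Figure D5:**
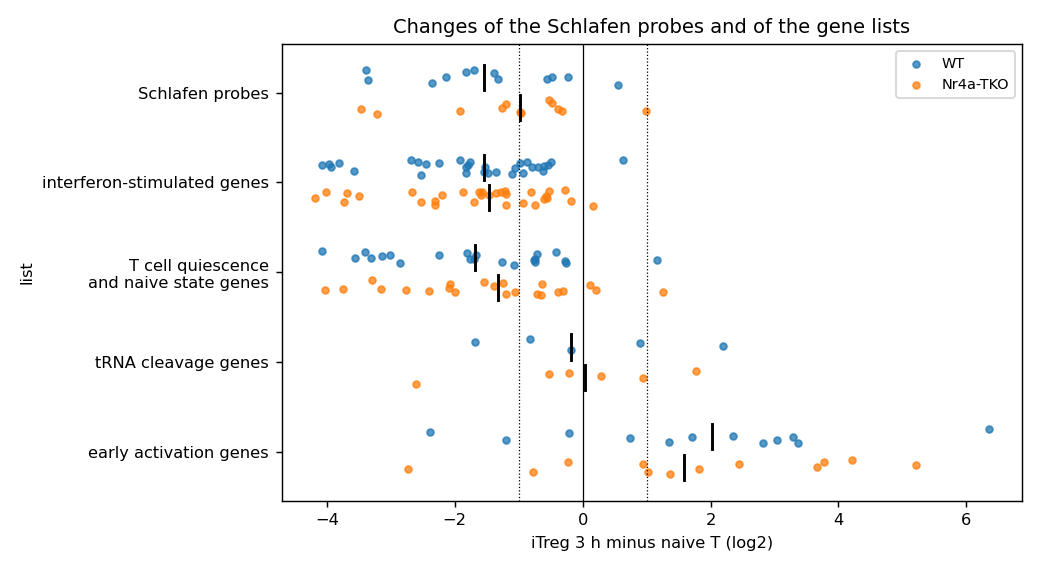
Difference of iTreg at 3 h minus naive T (log2, x axis) of the Schlafen probes and of the genes of each list (y axis) in WT (blue) and Nr4a-TKO (orange). Each point is a probe or a gene by its brightest probe, black bars are medians and dotted lines mark 2-fold. The Schlafen probes have medians of -1.54 and -0.97, interferon-stimulated genes -1.54 and -1.46, and early activation genes 2.03 and 1.59. The Schlafen medians are over probes and those of the lists over genes. With each Schlafen gene by its brightest probe they were -0.52 and -0.46.

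The genes with the pattern nearest to each member were found by the root mean square difference of the 4 centred log2 values, over 15636 named genes whose brightest probe passed the background test on each array. For Slfn1 they were Phf1, Lrba and Dnajc3 (0.012 to 0.019), for Slfn2 Thap1, Ubl3 and Snupn (0.012 to 0.023) and for Slfn8 Ly6e, Rab3ip and Trappc9 (0.0069 to 0.025). For the brightest probes of Slfn5 and Slfn9 they were Gm4633, Tra2b and Gm35147 (0.0032 to 0.0074) and Myo18b, Teddm2 and Vcl (0.0025 to 0.013). For Slfn5 A_51_P364694, added after its values were seen, the nearest were Rtn4rl1, Gbp11 and Arhgap9 (0.059 to 0.11). For Slfn5 A_55_P2804417, added in the same way, they were Selenop, Rtn4rl1 and Gbp11 (0.072 to 0.15). Among the members by brightest probe, the nearest pairs were Slfn5 with Slfn9 (0.12) and Slfn1 with Slfn8 (0.13). Of 15636 genes, Slfn9 held rank 2419 for Slfn5 and Slfn5 rank 1521 for Slfn9, so many other genes lay nearer. Slfn8 held rank 229 for Slfn1 and Slfn1 rank 241 for Slfn8. The first pair rests on the Slfn5 probe upstream of the start site and the Slfn9 probe that shares a run with another gene. With 4 arrays, such likeness is a description of these arrays.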

How the data were processed

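The 4 arrays are Agilent single-colour arrays with Cy3-labelled RNA. The authors deposited the output of Agilent Feature Extraction 11.5.1.1 (per the labels) for each array: intensity values of every spot and its local background, a processed intensity, and flags. Probe coordinates in the files are on mm9. A second set of deposited values, in log2, equals the processed intensity in log2 after a constant per array that sets the 75th percentile to 0. The study's methods name RMA in GeneSpring for expression values.

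Spot means were corrected with normexp against the local background (offset 0), quantile-normalized over the 4 arrays, put on the log2 scale and averaged over the spots of a probe, with limma 3.58.1 in R 4.3.3 and the data.table package (1.17.8). Control spots and 115 to 160 outlier spots per array were left out, and no spot was saturated. Later steps used Python 3.11.15, pandas 2.3.3, numpy 2.4.6 and matplotlib 3.10.9. Differences were taken if either array passed the background test. A failing value below that array's floor, its dimmest passing probe (3.07 to 3.45), was set to the floor, and the difference is then a bound. The spot spread came from 300 probes per array with at least 5 spots. Gene names came from the RefSeq table of GRCm38.p6 for 32989 probes by transcript, 10228 by symbol and 519 by synonym, 8038 kept the name in the files and 4831 had none. Counting past 2-fold was tested on simulated data.

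Named were all member probes, other Schlafen genes, the 3 nearest genes of each member, neighbours past 2-fold and the 2 highest and 2 lowest genes of each list in WT, of which 1 is not reported here. The lists were interferon-stimulated, T cell quiescence and naive state, tRNA cleavage and early activation genes, and markers of CD4 T, myeloid, dendritic, B, NK, CD8 T and erythroid cells. Members and lists were chosen with earlier results of these data known. Alternatives were other scalings and background corrections, the deposited values, other filters, other thresholds and averaging a gene's probes.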

Additional observations from a re-analysis of the deposited data

How the results depend on the processing

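The count of Schlafen probes past 2-fold from WT naive T to iTreg at 3 h was between 6 and 9 under the alternatives, all lower at 3 h, and no called probe changed direction under any of them. With the processed intensities scaled to the 75th percentile, the difference of the changes passed 2-fold for 3 probes in place of 1, and with the deposited values for 2. With a normexp offset of 50 the counts were 3 for the Nr4a-TKO change, 0 for the genotypes in naive T and 0 for the difference of the changes, and with no background correction the last pair were also 0 and 0. At a threshold of 1.5-fold the counts were 8 for the Nr4a-TKO change, 2 for the genotypes at 3 h and 3 for the difference of the changes, and at 3-fold they were 3 for the Nr4a-TKO change, 0 for the genotypes in naive T and 0 for the difference of the changes. The single probe past 2-fold between the naive genotypes, Slfn5 A_55_P2722135, ranged from -1.12 to -0.59. Over the alternatives, the Slfn5 differences in WT and Nr4a-TKO ranged from -3.47 to -2.47 and -3.39 to -2.25 for A_51_P364694, from -3.56 to -2.16 and -3.86 to -2.03 for A_55_P2804417, and from -3.18 to -0.83 and -2.65 to -0.63 for A_66_P128525, each smallest with the offset of 50. With no background correction, A_66_P128525 differed by -1.31 and -1.05. The offset of 50 compresses dim probes by construction, and the cause of the other shifts was not tested. Over all probes, more than 2-fold counts in WT were 3650 higher and 3343 lower with the main values, 1509 and 1389 with the offset of 50, and between the genotypes at 3 h 653 and 752 against 1133 and 1089 with the processed intensities. With a gene's probes averaged, the medians were -1.54 in WT and -1.22 in Nr4a-TKO for interferon-stimulated genes and -1.30 and -1.25 for quiescence genes. No paired analysis was possible because each group has 1 array. Dim probes such as Slfn3 and Slfn4 lie where the spot spread is widest, and 1 array per group limits every difference.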
